A study of Homo sapiens with 48 samples.

Results

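Genes of bone morphogenetic protein (BMP) and transforming growth factor beta (TGF-β) signalling were followed, 10 in number and chosen by name: the ligands BMP4 and BMP7, the receptors TGFBR3 and BMPR2, the target genes ID1, ID2, ID3 and ID4, and the inhibitory SMADs SMAD6 and SMAD7. They were chosen with earlier results of these data known. Of these 10, 9 had a row in the count tables of 14685 genes, and ID1 was not analysed here. The cells were HEK293T, a human embryonic kidney line, labelled WT and transiently transfected in every arm with a plasmid for NCBP1, the larger protein of the complex that binds the 5′ cap of nuclear RNA, fused to Halo. In the T-REX arm, a photocaged form of the lipid electrophile 4-hydroxynonenal (HNE) bound to the Halo tag was released by light beside NCBP1. The 3 controls were light alone, probe alone and DMSO. The Methods list the caged probe and light under light alone, the caged probe and no light under probe alone, and vehicle and no light under DMSO. The labels call the light alone arm a UV control, and what set it apart from T-REX is not given further in the sources used here. RNA was taken 3, 6 or 12 h later. Each arm had 4 libraries at a time point, described by the study as independent biological samples, which makes 48. Transfection was transient, so cells without the fusion are part of every library, and the line is a single one.

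Total counts per library ran from 23952455 to 37099535. Of 8 HEK293T markers, 7 had a row and PAX2 had none, whereas none of 6 markers of blood, endothelium and hepatocytes and 1 of 3 fibroblast markers (COL1A1) had one. In bulk RNA a change in the share of transfected cells and a change in RNA per cell cannot be told apart.

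BMPs are secreted dimers that bring type I and type II receptor kinases together. The type I kinase phosphorylates SMAD1, SMAD5 or SMAD9, which enter the nucleus with SMAD4 and switch on target genes. The ID genes are the best-known direct targets; their proteins pair with basic helix-loop-helix factors and keep them off DNA, and they are associated with growth and delayed differentiation. SMAD6 and SMAD7 are induced by the same pathways and inhibit them in turn.

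The stretches before the transcription starts of the 4 members that were lower under T-REX than at least 2 controls are shown for their motif content. They are RefSeq windows of 250 bases that end at the base before the start, on GRCh38.p14, written 5′ to 3′ along the gene. Capitals mark 3 motifs. The first is the GC-rich, palindromic SMAD1/5-type motif GGCGCC, and the second is its variant on either strand with the letters GGAGCC. The third is the palindromic SMAD3/4-type motif GTCTAGAC.
BMP4, the first start (chr14:53955051-53955300, minus strand): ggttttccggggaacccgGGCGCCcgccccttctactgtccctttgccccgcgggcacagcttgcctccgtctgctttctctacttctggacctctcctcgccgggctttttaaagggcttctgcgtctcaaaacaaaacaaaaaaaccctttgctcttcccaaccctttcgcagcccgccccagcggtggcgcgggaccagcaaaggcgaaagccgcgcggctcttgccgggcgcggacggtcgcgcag
BMP4, the third start (chr14:53953396-53953645, minus strand): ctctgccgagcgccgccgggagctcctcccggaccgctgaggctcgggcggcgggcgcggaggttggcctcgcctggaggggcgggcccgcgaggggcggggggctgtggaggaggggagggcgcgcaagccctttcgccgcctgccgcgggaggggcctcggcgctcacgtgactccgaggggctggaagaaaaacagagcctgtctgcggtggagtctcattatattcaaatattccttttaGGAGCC
ID2 (chr2:8681806-8682055, plus strand): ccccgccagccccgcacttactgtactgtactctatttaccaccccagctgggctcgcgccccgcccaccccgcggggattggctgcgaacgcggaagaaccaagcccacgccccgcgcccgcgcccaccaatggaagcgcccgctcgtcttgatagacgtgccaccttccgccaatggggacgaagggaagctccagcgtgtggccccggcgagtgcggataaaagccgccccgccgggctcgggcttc
TGFBR3 (chr1:91886152-91886401, minus strand): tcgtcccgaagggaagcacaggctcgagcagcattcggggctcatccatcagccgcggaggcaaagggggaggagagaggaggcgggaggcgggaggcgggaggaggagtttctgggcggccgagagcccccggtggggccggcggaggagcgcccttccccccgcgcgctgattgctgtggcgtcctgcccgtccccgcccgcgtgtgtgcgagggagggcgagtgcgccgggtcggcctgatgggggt
SMAD6 (chr15:66701986-66702235, plus strand): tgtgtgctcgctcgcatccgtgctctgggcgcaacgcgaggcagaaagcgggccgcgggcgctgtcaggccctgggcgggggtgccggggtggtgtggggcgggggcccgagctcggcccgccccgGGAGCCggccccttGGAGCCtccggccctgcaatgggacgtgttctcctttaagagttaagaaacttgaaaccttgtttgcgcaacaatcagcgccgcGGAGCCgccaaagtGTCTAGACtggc

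The SMAD6 window held GGAGCC 3 times and GTCTAGAC once, close to the start. GTCTAGAC was in 0.182% of 35116 RefSeq windows of this length, and in no window of the other 7 measured members with an entry. GGAGCC was in 30.6% of all windows, on either strand, and GGCGCC in 16.4%. The first BMP4 window held GGCGCC once and the third start's window GGAGCC once, the window of the second start none, while the ID2 and TGFBR3 windows held none of these 3 motifs. The short half-site GTCT, which is contained in GTCTAGAC, was in 77.5% of all windows, in the ID2 window 2 times and in the TGFBR3 window 0 times.

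Per kilobase of exon (GENCODE 29 union exons, so approximate for counts whose annotation is not stated), ID4 and ID2 were the most abundant members at 3 h, with 29 CPM per kb (libraries 26.8 to 31.7) for ID4 and 26.2 CPM per kb (libraries 21.5 to 29.5) for ID2. BMPR2, the type II BMP receptor, followed with 14.3 CPM per kb (libraries 12.0 to 15.4). BMP4 had 5.31 CPM per kb (libraries 3.75 to 6.72), TGFBR3 4.79 CPM per kb (libraries 4.10 to 5.39) and BMP7 3.94 CPM per kb (libraries 2.80 to 4.69). The lowest levels were those of SMAD7 with 1.64 CPM per kb (libraries 1.24 to 2.28), SMAD6 with 1.39 CPM per kb (libraries 1.04 to 1.90) and ID3 with 0.832 CPM per kb (libraries 0.417 to 1.5). The library ranges overlapped between ID4 and ID2, among BMP4, TGFBR3 and BMP7, and among SMAD7, SMAD6 and ID3. Within single libraries, ID4 exceeded ID2 per kilobase in 14 of 16, BMP4 exceeded TGFBR3 in 9, and TGFBR3 exceeded BMP7 in 14. SMAD7 exceeded SMAD6 in 14 of 16 and ID3 in all 16, and SMAD6 exceeded ID3 in 15. The order of BMP4 and TGFBR3 was thus the least settled. Counts per library were 305 to 1041 for BMP4, 1265 to 4790 for ID2 and 240 to 759 for SMAD6, but only 21 to 251 for ID3.

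T-REX was compared with each control to ask which members differed after light release of HNE at NCBP1. Every member call was a lower level under T-REX. By the study's own rule, under which a gene is significantly differentially expressed (SDE) if 2 or more of the 3 controls give a call of the same sign, BMP4 and TGFBR3 were lower at 3 h, ID2 at 6 h, and BMP4, ID2 and SMAD6 at 12 h. SDE genes made up 0.947%, 0.136% and 1.4% of all genes at 3, 6 and 12 h. BMP7, BMPR2, ID3, ID4 and SMAD7 were SDE at no time. When each pair of arms was fitted by itself, 0 members were SDE at 3 h and 0 at 6 h, and BMP4, ID2 and SMAD6 were still SDE at 12 h. Those fits called 0.0204% of all genes against light alone and 0.0204% against probe alone at 3 h, and 0.0613% against light alone at 6 h. At 6 h they called 0.599% against probe alone and 0.872% against DMSO. At 12 h they called 7.67% against light alone, above the 1.29% of the joint fit, and 2.49% against DMSO, below its 10.9%. The study itself names BMP4 among its top-ranked genes on these same libraries, so its values here are not independent evidence of that ranking.

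Genes are called at an adjusted p of at most 0.05 in edgeR's quasi-likelihood test over all 14685 genes. At 3 h, 1 of 9 members was called against light alone (background 0.197% of all genes), 1 against probe alone (1.05%) and 4 against DMSO (5.99%). At 6 h the numbers were 1 against light alone (0.218%), 0 against probe alone (0.109%, with 2 members with an unadjusted p up to 0.05 and 0 called by DESeq2) and 1 against DMSO (0.415%). At 12 h they were 3 against light alone (1.29%), 0 against probe alone (0.701%, with 1 with an unadjusted p up to 0.05 and 1, SMAD6, called by DESeq2) and 3 against DMSO (10.9%). The median log2 fold change of the 9 members at 3 h was -0.14 with light alone as the control, -0.089 with probe alone and -0.19 with DMSO, where the median of all genes was 0.00063, 0.024 and 0.031. At 12 h the member medians were -0.081, 0.016 and -0.14, beside 0.00091, 0.0014 and 0.0031 for all genes. The 3 comparisons of a time share the T-REX libraries, so their calls are not independent of each other. Because the members were chosen with earlier results known, the shares beside their counts are a description and not a test.

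**Figure D1:**
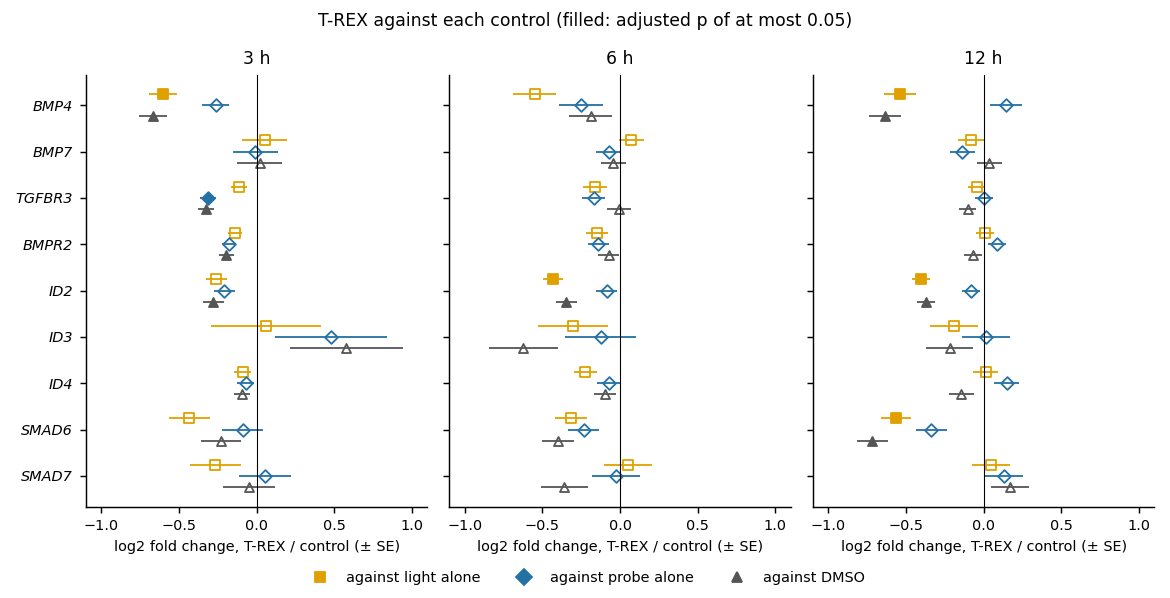
Log2 fold change of each member, T-REX over control, with its standard error, at 3, 6 and 12 h (x axis, log2 scale; y axis, members; squares, diamonds and triangles for light alone, probe alone and DMSO). Filled symbols passed an adjusted p of 0.05; all 14 of them lie left of 0, and only 1, TGFBR3 at 3 h, is a comparison with probe alone.

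BMP4, a secreted ligand of the BMP receptors, was lower under T-REX than under light alone and DMSO at 3 h and again at 12 h. At 3 h it stood at 12.9, 11.6, 12.6 and 12.1 CPM (counts scaled to a common library total, with TMM factors over all 48 libraries) in the 4 T-REX libraries. Light alone had 18.8, 18.6, 19.5 and 17.7 CPM and DMSO 20.6, 19.8, 20.7 and 17.1 CPM. Probe alone lay between, at 13.9, 16.9, 14.7 and 14.2 CPM. Every T-REX library was below every control library at 3 h. The log2 fold change was -0.60 ± 0.09 (adjusted p = 0.00339) against light alone, -0.66 ± 0.09 (adjusted p = 0.000654) against DMSO and -0.26 ± 0.09 (adjusted p = 0.123), not called, against probe alone. The call against light alone did not pass when only those 2 arms were fitted (adjusted p = 0.0592).

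At 6 h BMP4 spread more widely within arms, with 15.2, 20.5, 21.9 and 17.5 CPM under T-REX and 28.0, 24.2, 36.3 and 21.4 CPM under light alone. Probe alone had 22.4 ± 2.15 and DMSO 21.4 ± 2.41 CPM (mean ± SD, n = 4). The ranges of T-REX and light alone overlapped, and the log2 fold change of -0.55 ± 0.14 (adjusted p = 0.118) was not called, although it was called by DESeq2 (adjusted p = 0.016) and without light alone replicate 4 (0.0165). At 12 h T-REX had 16.5, 19.2, 20.5 and 18.8 CPM, light alone 27.3, 30.5, 27.0 and 24.0 CPM and DMSO 25.4, 29.9, 35.4 and 25.4 CPM. Probe alone had 16.1, 17.1, 16.2 and 18.3 CPM. T-REX and probe alone overlapped, and both lay wholly below light alone and DMSO. The log2 fold change under T-REX was -0.54 ± 0.10 (adjusted p = 0.00453) against light alone and -0.63 ± 0.10 (adjusted p = 0.000394) against DMSO, whereas it was 0.14 ± 0.10 (adjusted p = 0.682) against probe alone. BMP4 kept its calls at 3 and 12 h, against light alone and DMSO, in all 16 fits per time that left out 1 library.

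BMP7, another BMP ligand, was called in none of the 9 comparisons of T-REX with a control. Its T-REX mean was 21.5 ± 4.86 CPM at 3 h, 26.5 ± 0.959 at 6 h and 27.3 ± 1.18 at 12 h, and its log2 fold changes ran from -0.14 ± 0.082 (probe alone, 12 h) to 0.071 ± 0.08 (light alone, 6 h). At 3 h its T-REX libraries spread from 15.2 to 25.4 CPM, the widest spread of its 12 groups.

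TGFBR3 (betaglycan), a co-receptor that presents TGF-β and some BMPs to the signalling receptors, was lower under T-REX at 3 h. It had 37.4, 35.7, 36.0 and 36.4 CPM under T-REX and 38.1, 39.6, 40.0 and 39.4 CPM under light alone. Probe alone had 46.9, 44.6, 46.1 and 44.9 and DMSO 45.4, 46.5, 44.2 and 46.7 CPM. The T-REX libraries lay below those of all controls, and the light alone libraries lay below those of probe alone and DMSO. The log2 fold change was -0.31 ± 0.051 (adjusted p = 0.00675) against probe alone and -0.33 ± 0.051 (adjusted p = 0.00132) against DMSO, and -0.11 ± 0.051 (adjusted p = 0.313), not called, against light alone. In a fit of T-REX and probe alone only, the first of these did not pass (adjusted p = 0.104). Light alone against DMSO gave -0.21 ± 0.051 (adjusted p = 0.261), which DESeq2 called (adjusted p = 0.0496). At 6 h TGFBR3 was not called: T-REX had 53.7 ± 4.13 CPM and DMSO 53.9 ± 4.07, while light alone had 60.0 ± 5.76 and probe alone 60.5 ± 3.83 CPM. T-REX was -0.16 ± 0.076 (adjusted p = 0.415) against light alone and -0.17 ± 0.076 (adjusted p = 0.717) against probe alone. Nor was it called at 12 h, where T-REX had 54.5 ± 2.63 and DMSO 58.5 ± 2.67 CPM.

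BMPR2, the type II receptor kinase for BMPs, differed by less. At 3 h it had 162, 152, 142 and 163 CPM under T-REX and 180.0, 177, 175 and 178 CPM under DMSO, with no overlap. Light alone had 170.1 ± 4.36 and probe alone 177 ± 6.43 CPM. It was called against DMSO, with -0.19 ± 0.047 (adjusted p = 0.0187), but not without T-REX replicate 2 (adjusted p = 0.0503) or DMSO replicate 1 (0.0647), nor with only both arms fitted (0.0899). Against probe alone it was -0.18 ± 0.047 (adjusted p = 0.0636), called by DESeq2 (0.0115) and without T-REX replicate 1 (0.0495). By 12 h the mean under T-REX was 199 ± 8.14 CPM, between those of probe alone and DMSO.

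ID2 was the ID gene that differed most often. At 3 h it had 49.8, 47.3, 54.8 and 50.2 CPM under T-REX and 54.8, 64.7, 65.0 and 61.3 under DMSO. Light alone had 64.5, 58.5, 64.0 and 55.0 and probe alone 58.6, 61.1, 58.7 and 57.5 CPM. T-REX replicate 3 and DMSO replicate 1 were equal to 3 digits, and the T-REX libraries otherwise lay below every control library. The differences were -0.26 ± 0.067 (adjusted p = 0.0815) against light alone, -0.21 ± 0.067 (adjusted p = 0.105) against probe alone and -0.28 ± 0.067 (adjusted p = 0.0185) against DMSO, of which the last alone was called. That call did not pass without T-REX replicate 2 (adjusted p = 0.0548), without DMSO replicate 2 (0.0724) or with only both arms fitted (0.0661). Leaving out T-REX replicate 3, ID2 was also called against light alone (0.0318) and probe alone (0.0399), and without light alone replicate 4 against light alone (0.0458).

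At 6 h ID2 had 69.5, 64.1, 69.1 and 63.1 CPM under T-REX and 71.6, 71.2, 67.4 and 72.0 under probe alone, and these overlapped. Light alone had 98.5, 96.9, 77.6 and 85.2 and DMSO 88.2, 78.5, 87.8 and 83.5 CPM, wholly above both. The log2 fold change was -0.43 ± 0.067 (adjusted p = 0.0015) against light alone, -0.35 ± 0.067 (adjusted p = 0.0184) against DMSO and -0.086 ± 0.067 (adjusted p = 0.889) against probe alone. The call against light alone was lost when only those 2 arms were fitted (adjusted p = 0.0744). That against DMSO, and with it the SDE status of ID2, was lost without T-REX replicate 2 (0.0969) or 4 (0.0547) and without DMSO replicate 1 (0.0949) or 3 (0.0587).

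At 12 h ID2 stood at 108, 113, 104 and 112 CPM under T-REX and 127, 118, 112 and 103 CPM under probe alone, again overlapping. Light alone had 155, 141, 143 and 139 and DMSO 136, 147, 141 and 139.5 CPM, wholly above the other two. T-REX differed by -0.40 ± 0.057 (adjusted p = 0.000226) from light alone and by -0.37 ± 0.057 (adjusted p = 0.000251) from DMSO, both called in all 16 fits that left out 1 library, and by -0.079 ± 0.057 (adjusted p = 0.677) from probe alone. An antisense gene, ID2-AS1, overlaps ID2 and has its own row, with 2.91 to 17.9 CPM in the 48 libraries against 47.3 to 155 CPM for ID2; whether the counting used strand is not given in the sources used here.

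ID3 and ID4 were called in no comparison of T-REX with a control. ID3 had 0.750 to 8.43 CPM over the 48 libraries and spread widely within arms at 3 h, from 26 to 67 counts under T-REX and from 22 to 81 under light alone. At 3 h its T-REX libraries had 0.987, 1.31, 2.36 and 2.50 CPM and its DMSO libraries 0.75, 1.03, 1.83 and 1.18, a log2 fold change of 0.58 ± 0.36 (adjusted p = 0.373). At 6 h ID3 was -0.62 ± 0.22 (adjusted p = 0.225) against DMSO, with no overlap, -0.30 ± 0.22 against light alone and -0.13 ± 0.23 against probe alone, and its sign against DMSO thus differed between 3 and 6 h without either being called. ID4 had 64.7 ± 2.34 CPM under T-REX at 3 h and 69.3 ± 4.68 under DMSO, and 124 ± 12.3 and 137 ± 20.6 at 12 h. ID4 against light alone at 6 h was -0.22 ± 0.072 (adjusted p = 0.233), called without light alone replicate 4 (adjusted p = 0.0425).

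SMAD6, which blocks BMP receptors and SMAD1/5 signalling, was lower under T-REX at 12 h. It had 13.2, 17.7, 13.9 and 15.3 CPM under T-REX, 21.6, 23.0, 23.1 and 21.5 under light alone and 23.9, 23.1, 28.3 and 23.6 under DMSO. Probe alone had 20.0, 17.3, 21.0 and 17.4 CPM. The T-REX libraries lay wholly below light alone and DMSO and overlapped probe alone at 1 library. The log2 fold change was -0.57 ± 0.10 (adjusted p = 0.0015) against light alone, -0.72 ± 0.10 (adjusted p = 6.45e-05) against DMSO and -0.34 ± 0.10 (adjusted p = 0.127) against probe alone. The first 2 were called in all 16 fits that left out 1 library, and the third without DMSO replicate 3 (adjusted p = 0.0352).

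At 3 h SMAD6 had 10.3 ± 1.29 CPM under T-REX and 13.9 ± 1.57 under light alone, -0.43 ± 0.13 (adjusted p = 0.133), without overlap. The differences from probe alone, -0.089 ± 0.13 (adjusted p = 0.747), and DMSO, -0.23 ± 0.13 (adjusted p = 0.32), were smaller, with overlapping libraries. At 6 h it had 12.8, 13.0, 15.3 and 15.5 CPM under T-REX and 21.3, 16.1, 20.0 and 17.3 under DMSO, which did not overlap, with -0.40 ± 0.10 (adjusted p = 0.0782). It was -0.32 ± 0.10 (adjusted p = 0.226) against light alone and -0.24 ± 0.10 (adjusted p = 0.705) against probe alone. None of these was called, but that against DMSO at 6 h passed in DESeq2 (adjusted p = 0.0124), without light alone replicate 3 (0.0351) and without DMSO replicate 2 (0.0391).

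SMAD7, which inhibits both TGF-β and BMP receptors, was called in none of the 9 comparisons. Its means under T-REX were 7.82 ± 1.89, 9.16 ± 1.07 and 10.2 ± 0.914 CPM at 3, 6 and 12 h, and those under DMSO 8.12 ± 1.07, 11.7 ± 1.39 and 9.09 ± 1.09. At 6 h its log2 fold change was -0.36 ± 0.15 (adjusted p = 0.327) against DMSO, 0.048 ± 0.15 against light alone and -0.024 ± 0.15 against probe alone, and light alone and probe alone were themselves -0.41 ± 0.15 and -0.33 ± 0.15 against DMSO. SMAD7 thus did not show the difference seen for SMAD6 at 12 h, where it was 0.048 ± 0.12 against light alone and 0.17 ± 0.12 against DMSO.

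**Figure D2:**
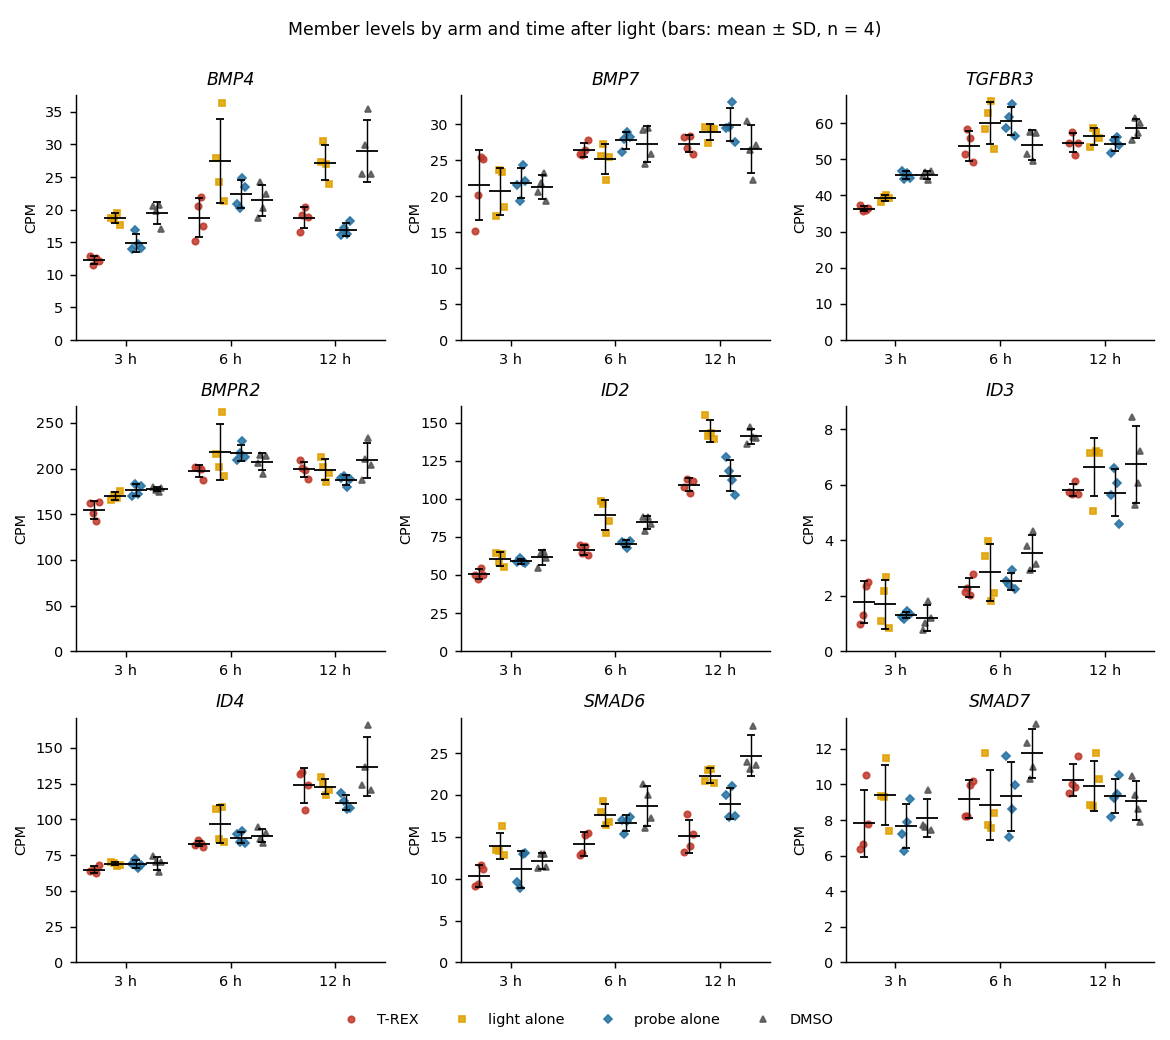
CPM of the 9 measured members in each of the 48 libraries (y axis, linear from 0), by time (x axis) and arm (circles T-REX, squares light alone, diamonds probe alone, triangles DMSO; bars, mean ± SD, n = 4). The T-REX libraries of BMP4 lie between 11.6 and 12.9 CPM at 3 h, below all controls, and at 12 h T-REX and probe alone lie together below light alone and DMSO for BMP4 and ID2.

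The controls were then compared with each other. Between light alone and DMSO no member was called at 3 h (0 of 9, background 0.00681%), 6 h (0, 0.00681%) or 12 h (0, 0.0136%) in edgeR. There were 1, 2 and 0 members with an unadjusted p up to 0.05, and DESeq2 called 1, 0 and 0. Between probe alone and DMSO no member was called at 3 h (0, 0.00681%) or 6 h (0, 0.0272%). Of the members, 1 and 4 had an unadjusted p up to 0.05, and none was called by DESeq2. With probe alone BMP4 at 3 h was -0.40 ± 0.089 (adjusted p = 0.54) and ID2 at 6 h -0.26 ± 0.067 (adjusted p = 0.31), both without overlap. ID3 and SMAD7 at 6 h were -0.50 ± 0.22 and -0.33 ± 0.15, while TGFBR3 was higher, at 0.16 ± 0.076. At 12 h probe alone and DMSO differed in 4 of 9 members, all lower with probe alone, where 5.11% of all genes were called. These 4 were BMP4 at -0.78 ± 0.10 (adjusted p = 0.000374), ID2 at -0.29 ± 0.057 (adjusted p = 0.00624), SMAD6 at -0.38 ± 0.10 (adjusted p = 0.0237) and ID4 at -0.29 ± 0.082 (adjusted p = 0.0399). The ID4 call was lost in 8 of 16 fits that left out 1 library, and without DMSO replicate 3, which had 166 CPM, its log2 fold change was -0.18. That of SMAD6 was lost without probe alone replicate 2 (adjusted p = 0.0863) or 4 (0.0716) or DMSO replicate 3 (0.0692). BMPR2, at -0.15 ± 0.058 (adjusted p = 0.111), was called only without DMSO replicate 1 (0.0219) and with the RUV factors. With only probe alone and DMSO fitted, BMP4 alone was called, where that fit called 0.0953% of all genes.

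Light alone exceeded probe alone in BMP4 at 12 h, by 0.68 ± 0.10 (adjusted p = 0.00131), and in ID2, by 0.32 ± 0.057 (adjusted p = 0.00573) (2 of 9 members; background 0.415%), in all 16 fits that left out 1 library. At 6 h only ID2 was called, at 0.35 ± 0.067 (adjusted p = 0.0436) (1 of 9; 0.0613%), and this was lost in 13 of 16 such fits. At 3 h no member was called in edgeR (0 of 9; 0.232%; 3 with an unadjusted p up to 0.05), although BMP4 was 0.34 ± 0.089 (adjusted p = 0.111) and TGFBR3 -0.20 ± 0.051 (adjusted p = 0.0987), both of which DESeq2 called. BMP4 and ID2 at 12 h were thus lower in both T-REX and probe alone than in light alone and DMSO, and T-REX and probe alone did not differ by a called amount.

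The level of NCBP1 moved with these arms. Its counts do not separate the plasmid from the endogenous gene. At 12 h NCBP1 stood at 57501 ± 5339 CPM under T-REX and 59151 ± 10048 under probe alone, but 40519.7 ± 6848 under light alone and 34642 ± 4554 under DMSO. At 6 h the means were 72832 ± 5963, 82943 ± 12035, 41696 ± 8909 and 53742 ± 5905 CPM in the same order, and at 3 h 75865 ± 15157, 64587 ± 4239, 61369.6 ± 6533 and 53847 ± 6155. Over the 12 arm-by-time means, each centred on its time, the Pearson correlation with log2 NCBP1 was -0.92 for ID2, -0.81 for BMP4, -0.81 for ID4, -0.69 for SMAD6 and -0.52 for BMPR2, and -0.38 for TGFBR3, -0.27 for ID3, -0.018 for SMAD7 and 0.57 for BMP7. These are descriptions over 12 means that share arms and libraries. The part of the NCBP1 level in the member differences was not tested.

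**Figure D3:**
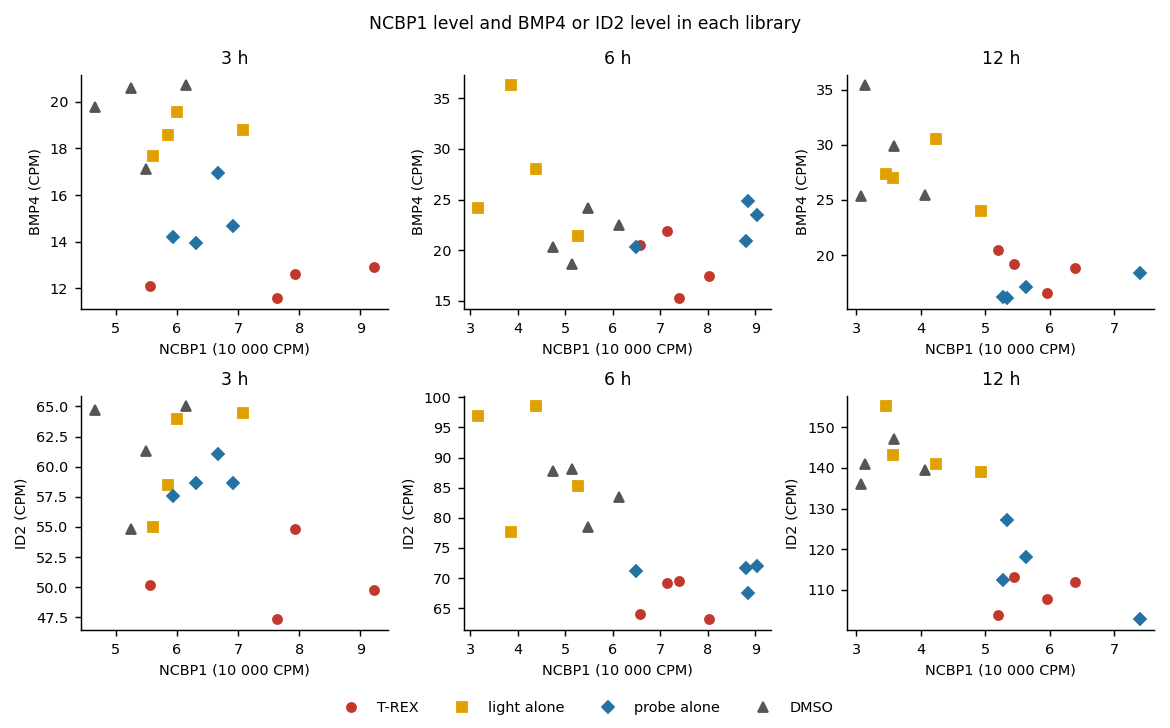
CPM of BMP4 (top row, y axis) and ID2 (bottom row) against CPM of NCBP1 in units of 10 000 (x axis), 1 point per library, at 3, 6 and 12 h, with arms by colour and shape. At 12 h all T-REX and probe alone libraries have more NCBP1 and less BMP4 and ID2 than all light alone and DMSO libraries. At 3 h the NCBP1 range of T-REX overlaps that of each control, and its BMP4 range lies below theirs. The part of the NCBP1 level was not tested.

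Whether the T-REX effect, taken against the mean of the 3 controls, differed between times was tested in a fit of all 48 libraries. No member was called in edgeR for 6 h minus 3 h (0 of 9; 0% of all genes) or for 12 h minus 3 h (0 of 9; 0.116%), with 2 and 3 members with an unadjusted p up to 0.05 and none called by DESeq2. For 12 h minus 3 h the difference in log2 fold change was 0.21 ± 0.069 (adjusted p = 0.199) for TGFBR3, 0.19 ± 0.07 (adjusted p = 0.281) for BMPR2 and -0.28 ± 0.13 (adjusted p = 0.397) for SMAD6. For BMP4 it was 0.18 ± 0.14 (adjusted p = 0.676) and for ID2 -0.028 ± 0.074 (adjusted p = 0.928). The calls of TGFBR3 at 3 h alone and of SMAD6 at 12 h alone were therefore not shown to be differences between times.

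The members were higher in the control libraries of the later times. In the mean of the control arms, all 9 members were higher at 6 h than at 3 h, where 41.5% of all genes were called, and 8 of 9 were higher at 12 h (60.9% called). The median member change was 0.42 at 6 h and 0.43 at 12 h on the log2 scale, beside -0.0029 and 0.0015 for all genes. ID3 rose by 1.08 ± 0.15 at 6 h and 2.19 ± 0.15 at 12 h (adjusted p = 1.79e-17), from 0.75, 1.03, 1.83 and 1.18 CPM in DMSO at 3 h to 8.43, 5.26, 6.05 and 7.21 CPM at 12 h, with no overlap. ID2 rose by 0.43 ± 0.037 and 1.14 ± 0.037, and ID4 by 0.40 ± 0.043 and 0.84 ± 0.043. SMAD6 rose by 0.51 ± 0.064 and 0.82 ± 0.064. The ligands and receptors changed mostly by 6 h: BMP4 by 0.42 ± 0.067 and 0.43 ± 0.067, BMP7 by 0.33 ± 0.061 and 0.42 ± 0.061, TGFBR3 by 0.42 ± 0.034 and 0.38 ± 0.034, and BMPR2 by 0.29 ± 0.035 and 0.18 ± 0.035. SMAD7 was 0.24 ± 0.089 (adjusted p = 0.0236) at 6 h and 0.18 ± 0.089 (0.0801), not called, at 12 h. In the same contrast NCBP1 fell by 0.45 on the log2 scale at 12 h, and its part in these changes was not tested. Each time had its own libraries. Whether these also differed by plate or preparation is not given in the sources used here. Time, such differences and time in culture after transfection cannot be told apart.

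**Figure D4:**
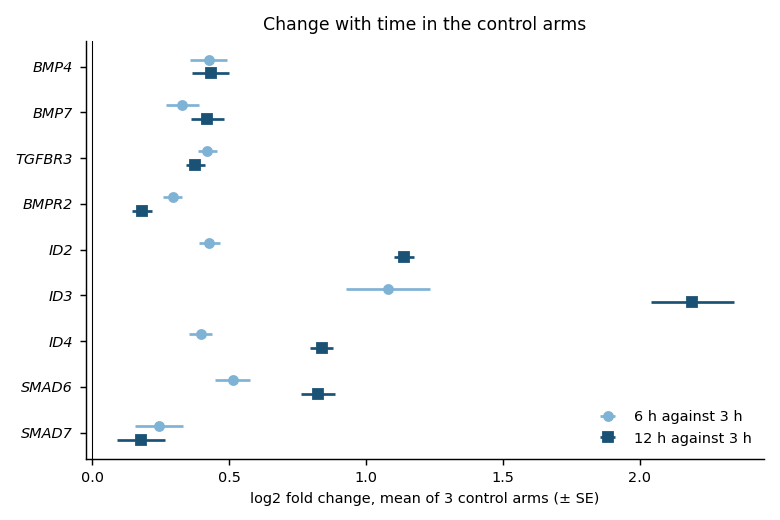
Log2 fold change of each member in the mean of the 3 control arms (x axis) at 6 h (circles) and 12 h (squares) against 3 h, with standard errors; members on the y axis. The 3 measured ID genes and SMAD6 lie further right at 12 h than at 6 h, up to 2.19 for ID3, while TGFBR3, BMPR2 and SMAD7 lie slightly left of their 6 h values. Both times share the libraries of 3 h.

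The genes whose 12 centred means were most like those of BMP4, among 10134 genes with a mean log2 CPM above 3, were TMEM126B (Pearson r = 0.98), E2F8 (0.98), PPP1R2 (0.98), MYNN (0.97) and TXLNG (0.97). Those most like TGFBR3 were TTK (0.99), PI4K2B (0.98), ASPM (0.98), HSD17B4 (0.97) and CGGBP1 (0.97). No member was among either set. Among the members, the most alike pairs were TGFBR3 with BMPR2 (0.88), BMP4 with ID2 (0.85) and ID2 with SMAD6 (0.83), whereas BMP7 with ID4 was -0.72 and ID3 with TGFBR3 -0.52. All of these values rest on the same 12 means and libraries. They were picked as the extremes of many correlations, so they are a description and not a test.

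The rest of the pathway was described with 7 lists of 98 genes, of which 66 had a row. These lists too were chosen with earlier results of these data known. Against probe alone, none of the 66 was called at 3, 6 or 12 h in edgeR. Of them, 13, 6 and 8 had an unadjusted p up to 0.05. DESeq2 called 6, 0 and 0 of them there, beside 4.24%, 0.388% and 1.75% of all genes. Against light alone, edgeR called none at 3 and 6 h, where 13 and 9 had an unadjusted p up to 0.05. There DESeq2 called 4 and 3, beside 1.77% and 1.04% of all genes. At 12 h edgeR called 3 against light alone (1 higher, 2 lower, 4.55% beside 1.29% of all genes). The share of all genes with an unadjusted p up to 0.05 is not given here. Against DMSO, 8 of 66 were called at 3 h, all lower, 1 at 6 h, lower, and 14 at 12 h, 2 higher and 12 lower. Those shares are 12.1% at 3 h, 1.52% at 6 h and 21.2% at 12 h, beside the background of 5.99%, 0.415% and 10.9% for all genes. With only T-REX and DMSO fitted, 3 of 66 were called at 3 h and 4 at 12 h, where those fits called 1.27% and 2.49% of all genes. The median log2 fold change of the 66 genes against DMSO was -0.023 at 3 h and -0.038 at 12 h, beside 0.031 and 0.0031 for all genes. Probe alone against DMSO at 12 h gave 6 calls among the 66 (9.09%, beside 5.11% of all genes), SMAD3 higher and BMP2, CRIM1, HEY1, RGMB and TCF4 lower, so these 6 differed from DMSO in both arms. With only those arms fitted, 0 of 66 and 0.0953% of all genes were called. With time in the controls, 28 of 66 were called at 6 h (42.4%) and 37 at 12 h (56.1%), close to the background of 41.5% and 60.9%.

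Among other ligands, 1 of 15 was called against DMSO at 3 h (6.67%) and 3 of 15 at 12 h (20%), all lower. Beside these counts, and those of receptors and antagonists below, 5.99% and 10.9% of all genes were called. GDF11, a relative of myostatin, was -0.39 ± 0.088 (adjusted p = 0.0133) at 3 h and -0.41 ± 0.088 (adjusted p = 0.0042) at 12 h. BMP2, the closest relative of BMP4, was -0.81 ± 0.17 (adjusted p = 0.004) and BMP6 -0.42 ± 0.12 (adjusted p = 0.0293) at 12 h, and BMP2 with probe alone was -0.61 ± 0.17 (adjusted p = 0.0403) against DMSO. Of 12 other receptors and co-receptors, the type I receptors BMPR1A, at -0.27 ± 0.055 (adjusted p = 0.00674), and TGFBR1, at -0.23 ± 0.067 (adjusted p = 0.0409), were lower than in DMSO at 3 h, and the BMP co-receptor RGMB was lower at 12 h, at -0.24 ± 0.074 (adjusted p = 0.034), as it was with probe alone, at -0.37 ± 0.074 (adjusted p = 0.0067). Of 9 secreted antagonists and related proteins, TWSG1 and CRIM1, both of which bind BMPs, were lower at 3 h, with -0.36 ± 0.072 (adjusted p = 0.00674) and -0.36 ± 0.066 (adjusted p = 0.00377), and at 12 h, with -0.28 ± 0.09 (adjusted p = 0.0468) and -0.22 ± 0.07 (adjusted p = 0.0387). With only T-REX and DMSO fitted, 1 of the 15 ligands was called at 3 h and 1 at 12 h. In those fits 0 of the 12 receptors were called at 3 or 12 h. Of the 9 antagonists, 2 were called at 3 h and 0 at 12 h.

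Of the 6 receptor and common SMADs, only SMAD3, which carries TGF-β rather than BMP signals, was called: at 12 h it was higher under T-REX, with 87.4 ± 3.04 CPM against 72.9 ± 2.62 with light alone, 0.26 ± 0.064 (adjusted p = 0.0336), and by 0.27 ± 0.064 (adjusted p = 0.00765) against DMSO. SMAD3 was also higher with probe alone than with DMSO, by 0.31 ± 0.064 (adjusted p = 0.00867). SMAD3 was 1 of 6 at 12 h, beside 1.29% of all genes against light alone and 10.9% against DMSO. With only T-REX and DMSO fitted, 0 of the 6 were called. SMAD1, SMAD5, SMAD9, SMAD2 and SMAD4 were called in no comparison of T-REX with a control. Of 11 intracellular brakes, the repressor SKIL was lower than in DMSO at 3 h, at -0.18 ± 0.053 (adjusted p = 0.0496), and the corepressor TGIF2 higher at 12 h, at 0.32 ± 0.10 (adjusted p = 0.045). That is 9.09% of the 11 at each time, beside 5.99% and 10.9% of all genes. With only both arms fitted, 0 were called at either time.

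Of 10 further targets, 5 were lower than in DMSO at 12 h, beside 10.9% of all genes called, and 2 when only both arms were fitted. SNAI2, a zinc-finger repressor of E-cadherin, was -0.40 ± 0.079 (adjusted p = 0.00604) against light alone and -0.39 ± 0.079 (adjusted p = 0.00291) against DMSO. The homeobox genes MSX1 and MSX2 were -0.46 ± 0.11 (adjusted p = 0.0102) and -0.32 ± 0.08 (adjusted p = 0.012), HEY1 was -0.43 ± 0.071 (adjusted p = 0.000498), and -0.36 ± 0.071 (adjusted p = 0.00624) with probe alone, and KLF10 -0.23 ± 0.065 (adjusted p = 0.026). KLF10 was also lower at 3 h, with -0.21 ± 0.058 (adjusted p = 0.0323). JUNB was lower than in DMSO at 6 h, with -1.55 ± 0.28 (adjusted p = 0.00935), at 1.33 ± 0.389 CPM under T-REX and 3.93 ± 1.66 under DMSO. Light alone, at 1.82 ± 0.210, and probe alone, at 1.51 ± 0.344 CPM, were near T-REX, and T-REX was -0.44 ± 0.29 and -0.18 ± 0.29 against them, neither called. Of 3 helix-loop-helix partners of the ID proteins, TCF4 was lower at 12 h, by -0.29 ± 0.052 (adjusted p = 0.00223) against light alone and -0.29 ± 0.052 (adjusted p = 0.00115) against DMSO (probe alone against DMSO, -0.20 ± 0.052 (adjusted p = 0.0269)), and TCF12 was lower at 3 h, at -0.21 ± 0.057 (adjusted p = 0.0345) against DMSO. SMAD3, SNAI2 and TCF4 at 12 h were the only genes of the 66 that were SDE at any time, where 1.4% of all genes were.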

How the data were processed

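RNA of HEK293T cells was sequenced from stranded libraries. The authors deposited, for each time, counts per gene that were not normalized (the values tested here), together with log2 CPM and a score per library for 2 factors of unwanted variation (RUV). The study's reporting summary names cutadapt, tophat and cufflinks for this RNA-seq; which tool made the gene counts, and their annotation and genome build, are not given in the sources used here. The deposited log2 CPM values and RUV scores served as alternatives only.

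Counts were fitted in R 4.3.3 with edgeR 4.0.16 (TMM, filterByExpr, robust quasi-likelihood F-test), the 16 libraries of a time together, and all 48 for contrasts of times. The filter removed 0 genes, and TMM factors were 0.954 to 1.06. p-values were adjusted by Benjamini-Hochberg over 14685 genes in each comparison. Standard errors are the absolute log2 fold change divided by the root of F. In addition, DESeq2 1.42.0, limma 3.58.1 on log2 CPM, RLE factors, no filter, RUV factors, 2 arms only, a replicate block and leaving out each library were alternatives. Tables and figures were made in Python 3.11.15. The edgeR fits of T-REX and of light alone against DMSO at each time were first run on simulated counts. So was the contrast of the T-REX effect at 12 h minus 3 h. The other comparisons and settings were not. How many changes the simulated runs recovered, and how many false calls they made, is not given here. Total counts ran from 23952455 to 37099535 (median 29405598.5), and no replicate pair agreed within sampling noise.

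Named genes were all measured members, list genes that were SDE at any time or called against a control, and the 5 genes most like BMP4 and TGFBR3; naming list genes called against 1 control was decided after their values were seen. The members and lists were chosen with earlier results of these data known. Promoter windows are from RefSeq (GRCh38.p14), where 8 of 9 measured members had an entry, and BMP7 had none; exon lengths are from GENCODE 29.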

Additional observations from a re-analysis of the deposited data

Results flagged for a closer look

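Of 108 sets of 4 libraries (9 members in 12 groups), 5 held a library far from the other 3, by the gap to its neighbour over the range of the set (Dixon's test at the 95% level for 4 samples). Chance alone flags about 1 in 20, or 5.4. The ratio was 0.957 for ID3 under light alone at 12 h, where replicate 2 had 5.07 CPM beside 7.13 to 7.22 in the others, and 0.912 for BMP7 in the same arm, where the same library had 27.4 CPM beside 29.4 to 29.6. SMAD7 in DMSO at 3 h gave 0.887, with 9.71 CPM in replicate 3 and 7.46 to 7.71 in the others. SMAD6 gave 0.841 in DMSO at 12 h, where replicate 3 had 28.3 CPM beside 23.1 to 23.9, and 0.830 under light alone at 3 h, where replicate 3 had 16.2 CPM beside 12.8 to 13.4. Without DMSO replicate 3 the SMAD6 difference between T-REX and DMSO at 12 h was still called, and leaving out light alone replicate 2 at 12 h called no further member against light alone.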

How the results depend on the processing

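All calls of members between arms kept their direction under every alternative run. BMP4, ID2 and SMAD6 against light alone and DMSO at 12 h were called in every alternative, and the filter and the RLE factors changed no count. With only both arms fitted, 7.67% of all genes were called against light alone at 12 h and 2.49% against DMSO. With DESeq2, 2 members were called against light alone at 3 h, where it called 1.77% of all genes (edgeR 0.197%). For probe alone as the control at 3 h, DESeq2 called 2 members (4.24% of all genes, edgeR 1.05%). At 6 h DESeq2 called 2 against light alone (1.04%, edgeR 0.218%) and 2 against DMSO (1.96%, edgeR 0.415%). At 12 h it called 1 against probe alone (1.75%, edgeR 0.701%). Between controls at 3 h it called 1 for light alone against DMSO (0.136%, edgeR 0.00681%). It called 2 there for light alone against probe alone (1.63%, edgeR 0.232%). With DESeq2, 4 members were SDE at 3 h, where it also called 8.17% of all genes against DMSO (edgeR 5.99%). The share of all genes that were SDE is not given here for DESeq2 or the RUV factors. With the RUV factors, 4 were called against light alone and 4 against probe alone at 3 h, 5 against light alone, 2 against DMSO and 1 against probe alone at 6 h, and 2 against probe alone and 4 against DMSO at 12 h; between controls, 1, 1 and 4 at 3 h (light alone against DMSO, probe alone against DMSO, light alone against probe alone), 2 and 1 at 6 h for the first 2, and 1 at 12 h for light alone against DMSO, 6 for probe alone against DMSO and 3 for light alone against probe alone; and 4 and 3 were SDE at 3 and 6 h. The RUV factors also raised calls over all genes, to 11.8% against light alone and 17.4% against probe alone at 3 h. At 6 h they raised them to 8.19% against light alone, 7.14% against DMSO and 1.75% against probe alone. At 12 h these shares were 6.14% against probe alone and 26.7% against DMSO. Between controls, in the order above, the shares were 5.84%, 1.25% and 14.8% at 3 h, 12.2% and 2.45% at 6 h, and 6.96%, 22.5% and 8.38% at 12 h. With only both arms fitted, 0 were called against light alone and 0 against probe alone at 3 h, 2 against DMSO at 3 h, 0 against light alone at 6 h, 0 for light alone against probe alone at 6 h and 1 for probe alone against DMSO at 12 h, and 0 were SDE at 3 and 0 at 6 h; these fits have fewer samples and called 0.0204%, 0.0204% and 1.27% of all genes at 3 h in that order, and 0.0613% against light alone at 6 h. The fits of both arms called 0.0204% of all genes for light alone against probe alone at 6 h. For probe alone against DMSO at 12 h they called 0.0953%. With limma on log2 CPM, 0 members were called for light alone against probe alone at 6 h, beside 0.0477% of all genes.

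Leaving out 1 library at a time, between 1 and 2 members were called against light alone at 3 h, 1 and 2 against probe alone, and 2 and 4 against DMSO. At 6 h these ranges were 1 to 3 against light alone, 0 to 2 against DMSO and 0 to 1 for light alone against probe alone. At 12 h they were 0 to 1 against probe alone and 2 to 5 for probe alone against DMSO. SDE members ran from 0 to 1 at 6 h. The shares of all genes called in these fits are not given here, so the ranges describe the members only. Whether the replicate numbers pair the libraries is not given in the sources used here. Over 72 pairs of same-numbered libraries the correlation of deviations ran from -0.644 to 0.58 and exceeded 0.1 in 30. For replicate 3 at 3 h it was positive for every pair of arms, from 0.148 to 0.576. With the replicate block, 3 members were called for probe alone against DMSO at 12 h, beside 4.38% of all genes (5.11% without the block). ID4 was lost there (adjusted p = 0.0597), and no other count of members changed. Against DMSO at 3 h the T-REX fit with the block called 6.95% of all genes (5.99% without it). The change of the controls with time was not fitted with the block. The RUV, limma and 2-arm settings were not run for contrasts between times. The fewest counts of a member in a library were 21, for ID3.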
